A study of Mus musculus with 12 samples.

Results

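Cdkn1a encodes p21, an inhibitor of cyclin-dependent kinases, and is described here as 1 gene of the 19463 gene rows counted in single blood progenitors of the mouse fetal liver. It was read as the row of that symbol in the unique molecular identifier (UMI) tables of 12 plates, over the wells that reached 1000 UMIs when ERCC spike-in rows were not counted, which left 3088 of 4608 wells. Of these wells 811 held at least 1 Cdkn1a UMI, and together they held 2752. The cells were LSK cells (lineage-negative, Sca-1-positive, Kit-positive progenitors) that were sorted by FACS from C57BL/6J fetal livers at embryonic day 18.5 and processed with SORT-seq, a plate method that gives each sorted cell a well. The double mutant, PcnaK164R/K164R;Rev1-/-, had 4 plates, PcnaK164R/K164R with intact Rev1 had 2, Rev1-/- with intact Pcna had 3, and WT for both genes had 3. Here they are called the double mutant, Pcna K164R, Rev1 knockout and WT. The labels do not say which animals a plate came from, so p-values measure the spread between plates, which may be technical.

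Both mutated genes act in the tolerance of DNA damage during replication. PCNA is the sliding clamp of the replication fork, its lysine K164 is where ubiquitin is attached to call in translesion polymerases, and REV1 is a translesion polymerase and a scaffold for others. When damage or stalled forks activate p53, Cdkn1a is among the genes p53 switches on. Its protein binds cyclin-CDK complexes and PCNA and holds cells before S phase or mitosis, and in blood stem cells it is known for keeping cells quiescent under stress.

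In GRCm38, the build named in the submitters' processing notes, Cdkn1a lies on the plus strand at chr17:29090976-29100727 in GENCODE vM21, a protein-coding gene with 2 annotated RefSeq starts. The 250 bases before each start are shown because they are the parts of the locus where a p53-type element and the core promoter can be seen. Capitals mark the pair of CATG cores with 6 bases between them in the distal window, and the GGGCGG and TATAA letters in the proximal one (RefSeq, GRCm38.p6, plus strand).
Distal start, chr17:29090729-29090978: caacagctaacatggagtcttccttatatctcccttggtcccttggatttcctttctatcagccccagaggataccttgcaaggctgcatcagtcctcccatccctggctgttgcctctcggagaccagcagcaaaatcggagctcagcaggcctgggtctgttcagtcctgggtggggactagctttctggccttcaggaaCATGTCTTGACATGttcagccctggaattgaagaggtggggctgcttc
Proximal start, chr17:29093519-29093768: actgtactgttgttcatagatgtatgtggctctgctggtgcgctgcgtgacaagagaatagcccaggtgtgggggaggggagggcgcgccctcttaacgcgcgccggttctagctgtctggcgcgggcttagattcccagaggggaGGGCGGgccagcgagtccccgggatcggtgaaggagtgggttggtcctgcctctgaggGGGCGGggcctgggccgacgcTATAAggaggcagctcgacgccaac
The motif of CATG, any 6 bases and CATG, which has the spacing of the cores of a full p53 site and reads the same on both strands, stood 48 to 35 bases before the distal start and was found in 0.490% of the 32851 windows of that length before annotated starts when both strands were searched. None of the 41 windows of 33 p53 target genes on the list used below held it. GGGCGG, the core of a GC box, occurred at 2 places in the proximal window and in 32.7% of all windows, and TATAA stood 25 to 21 bases before the proximal start and in 22.8% of all windows. SORT-seq counts 3' ends, so the level of Cdkn1a below is the sum over transcripts from both starts. An annotated antisense transcript of unknown status (chr17:29093416-29094461) was not used here. It overlaps first exons at the proximal start, whereas the protein-coding transcripts end between positions 29099577 and 29100727. Whether counting took strand into account was not stated, so reads from the overlap cannot be told apart.

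**Figure D1:**
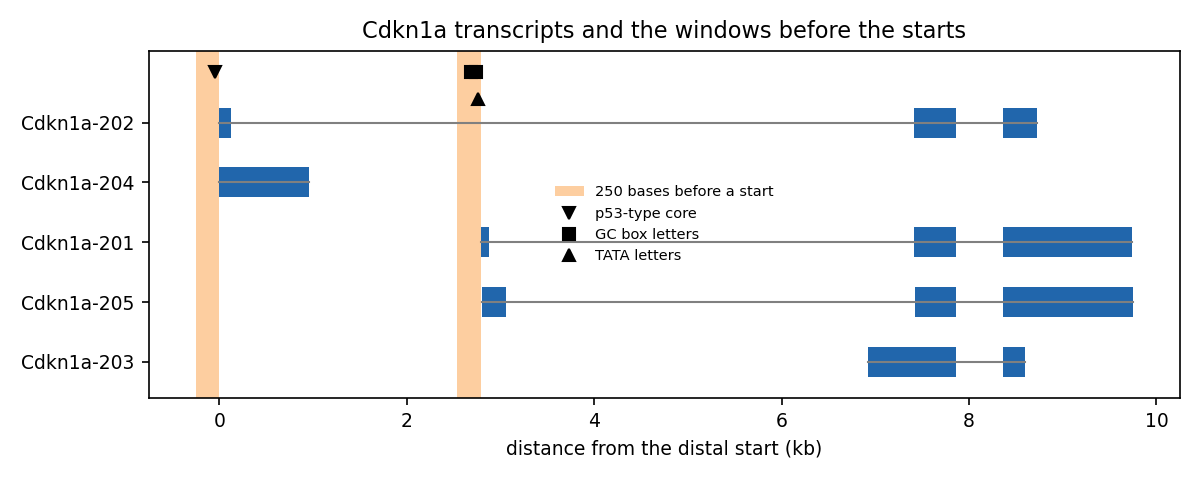
Annotated Cdkn1a transcripts (blue exons, grey introns) by distance from the distal start in kilobases, with the 250-base windows before the starts shaded and the motif matches marked above. The p53-type core sits in the distal window, and the GC box and TATA letters sit in the proximal one.

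The median depth of the kept wells ranged from 1730 UMIs in double mutant replicate 3, which kept only 82 wells, to 34853 UMIs in double mutant replicate 2. Rev1 itself was sparse in all plates. It stood at 1.29, 2.48, 4.70 and 13.7 CPM (UMIs per 1000000 UMIs of the plate) in plates 1 to 4 of the double mutant, at 6.00, 1.35 and 4.04 CPM in Rev1 knockout plates and at 11.0, 20.5 and 13.3 CPM in WT plates. Pcna K164R plates, where Rev1 is intact, had 11.3 and 7.86 CPM, the lower of which is close to the highest Rev1 knockout plate. The value of double mutant replicate 3 rests on 1 UMI. The library labelled double mutant replicate 4 had 33 Rev1 UMIs and a level within the range of WT, which goes against its label, although the deleted part of Rev1 is not given in the sources used here and a 3' count may lie outside it. The fits of Cdkn1a and the counts over gene lists are given with and without these libraries. Well names are the same on each plate, so they identify no shared cells.

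Cdkn1a was higher in the double mutant than in any other genotype. The double mutant plates held 834, 927, 7 and 152 Cdkn1a UMIs, which are 71.8, 95.8, 32.9 and 63.3 CPM in replicates 1 to 4. Pcna K164R plates had 31.0 and 28.8 CPM, Rev1 knockout plates 14.6, 14.7 and 10.5 CPM, and WT plates 22.5, 7.65 and 12.5 CPM. Each double mutant plate lay above each plate of the other genotypes, by little in replicate 3. In sums over a plate, fewer cells of a type and less RNA per cell cannot be told apart. Both Pcna K164R plates lay above all Rev1 knockout and WT plates, and the ranges of Rev1 knockout and WT overlapped. After TMM scaling, which corrects plate totals for composition, the means were 73.2 ± 16.6 CPM in the double mutant (SD, n = 4), 28.2 ± 0.917 CPM in Pcna K164R (n = 2), 12.3 ± 2.33 CPM in Rev1 knockout (n = 3) and 13.2 ± 7.49 CPM in WT (n = 3). Scaling moved double mutant replicate 3 to 60.8 CPM with a factor of 0.549, against 0.973 to 1.11 for the other plates. Set against the spike-in RNA, Cdkn1a had 3.40 ± 1.67 UMIs per 1000 ERCC UMIs in the double mutant, 1.20 ± 0.472 in Pcna K164R, 0.370 ± 0.0450 in Rev1 knockout and 0.401 ± 0.239 in WT, the same order, in which Rev1 knockout and WT did not differ beyond their spread.

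**Figure D2:**
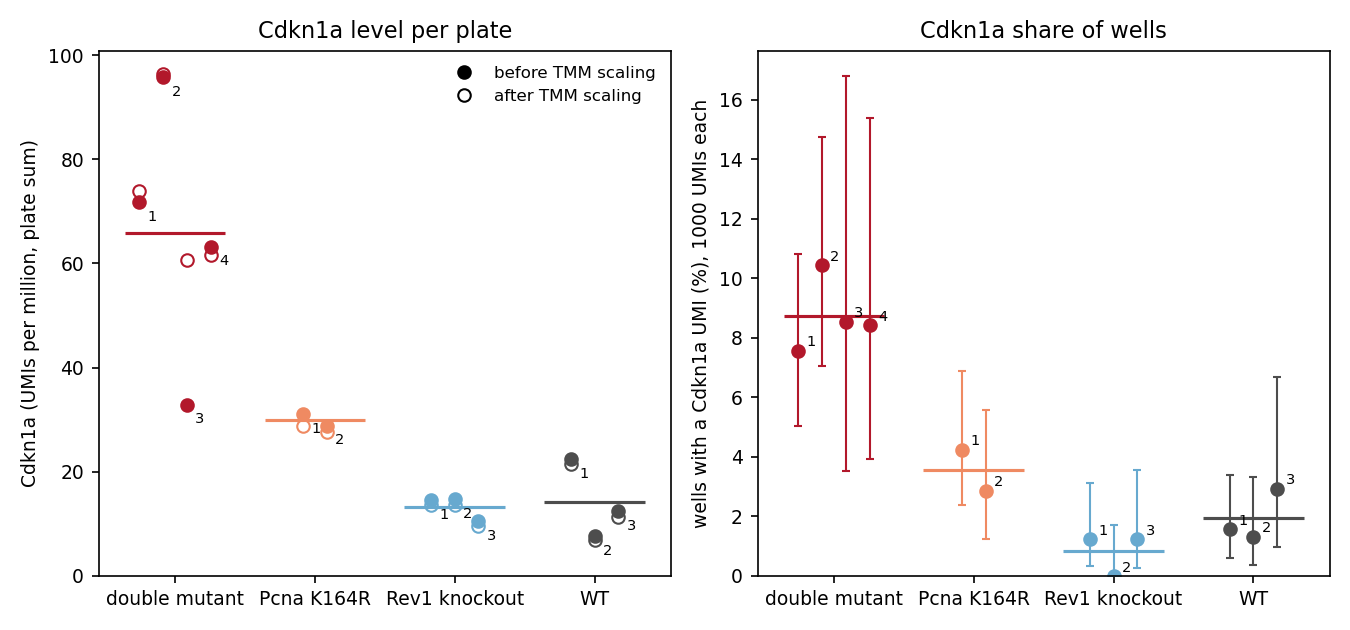
Left, Cdkn1a per plate in CPM before (filled) and after (open) TMM scaling; right, the percentage of wells with a Cdkn1a UMI after each well was thinned to 1000 UMIs, with 95% Clopper-Pearson intervals. Numbers are replicates and horizontal lines are group means of the filled points. The 4 double mutant plates are above the other plates in both panels.

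In edgeR's quasi-likelihood fit over all 12 plates with sort session as a term, Cdkn1a was 2.33 ± 0.26 higher on the log2 scale in double mutant plates than in WT plates (SE, adjusted p = 0.00218, 4 against 3 plates). It was 2.17 ± 0.29 higher than in Rev1 knockout (adjusted p = 0.0130) and 1.71 ± 0.28 higher than in Pcna K164R, where it did not pass the threshold of 0.05 (adjusted p = 0.0650). Of the 12221 genes tested 4.21% passed against WT, 1.75% against Rev1 knockout and 0.0409% against Pcna K164R. Genes that were higher in the double mutant made up 0.663% of all tested genes against Rev1 knockout, and none was higher against Pcna K164R. The comparisons share plates and are not independent. By p Cdkn1a ranked number 5 among all genes against WT. When the library labelled double mutant replicate 4 was left out, the differences were 2.08 against WT (adjusted p = 0.0463), 1.81 against Rev1 knockout, which no longer passed (adjusted p = 0.157), and 1.62 against Pcna K164R (adjusted p = 0.140). Without double mutant replicate 3 they were 2.34, 2.16 and 1.70, and the last of these passed (adjusted p = 0.0444).

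Neither single mutant passed the same test against WT. The log2 difference was 0.62 ± 0.30 for Pcna K164R (adjusted p = 1, unadjusted p = 0.0612) and 0.17 ± 0.30 for Rev1 knockout (adjusted p = 0.875), comparisons in which edgeR called 0 genes (239 and 1116 at an unadjusted p under 0.05, and 0 and 66 called by DESeq2). WT replicate 1 carried much of the WT level: a single mast cell-like well held 53 of its 163 Cdkn1a UMIs and 452 reads, and the plate stood at 15.2 CPM without it. When mast cell-like wells were left out everywhere, a choice made after seeing the data, the log2 differences were 2.65 between double mutant and WT (adjusted p = 0.000614), 1.71 for the double mutant against Pcna K164R, which then passed (adjusted p = 0.0387), and 0.94 for Pcna K164R against WT (adjusted p = 1). Without WT replicate 1 as a whole, Pcna K164R against WT was 1.14 (adjusted p = 0.712). The interaction, that is how far the double mutant exceeded the sum of both single changes, was 1.54 ± 0.38 on the log2 scale and did not pass over all genes (unadjusted p = 0.00156, adjusted p = 0.346).

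Sort date divides the plates into 3 sessions, and the double mutant was highest in each. In session 1 the double mutant had 71.8 and 95.8 CPM, Pcna K164R 31.0 and 28.8 CPM and WT 22.5 CPM. In session 2 the only pair was double mutant replicate 3 at 32.9 CPM and Rev1 knockout replicate 1 at 14.6 CPM. In session 3 the library labelled double mutant replicate 4 had 63.3 CPM, the Rev1 knockout plates 14.7 and 10.5 CPM and the WT plates 7.65 and 12.5 CPM. Fitted within a session, the difference from WT was 1.99 in session 1 (adjusted p = 0.0731, with the single WT plate assumed to vary like the others) and 2.79 in session 3 (adjusted p = 0.00970, with the 1 library labelled double mutant replicate 4 assumed to vary like the others). With the flow cell as the term instead of the session it was 3.15 (adjusted p = 0.0652). No flow cell held both a double mutant and a WT plate, so that estimate runs only through single mutant plates on the same flow cells. WT replicate 1 was alone on its flow cell.

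More wells carried Cdkn1a in the double mutant. As deposited, 53.5%, 58.2%, 8.54% and 41.1% of the kept wells of the double mutant plates had a Cdkn1a UMI, against 31.4% and 22.5% in Pcna K164R, 15.9%, 20.2% and 12.8% in Rev1 knockout and 19.9%, 6.56% and 9.94% in WT. These shares follow depth, so each well was thinned to 1000 UMIs. The thinned share was 7.56%, 10.4%, 8.54% and 8.41% in the double mutant, 4.24% and 2.86% in Pcna K164R, 1.22%, 0% and 1.23% in Rev1 knockout and 1.57%, 1.31% and 2.92% in WT. At equal depth the share of double mutant replicate 3 lay within the range of its group. That share rests on 7 wells with 1 UMI each, all of which stayed in 1 random draw. Its 95% Clopper-Pearson interval runs from 3.50% to 16.8%. The 0 of 213 wells in Rev1 knockout replicate 2 allows a share of up to 1.41% when 0 is taken to allow 3 counts, and its 95% Clopper-Pearson interval reaches 1.72%. The double mutant exceeded WT by 6.80 percentage points and Rev1 knockout by 7.92 points, with no overlap in 4 against 3 plates (exact permutation test, two-sided p = 0.0286 each, the smallest this design allows, adjusted p = 0.0714 over 5 pairs). It exceeded Pcna K164R by 5.19 points (exact permutation p = 0.0667, the smallest for 4 against 2 plates, adjusted p = 0.111). Pcna K164R against WT differed by 1.61 points (exact permutation p = 0.3, adjusted p = 0.3) and Rev1 knockout against WT by -1.12 points (exact permutation p = 0.1, adjusted p = 0.125). No pair passed after adjustment, and the difference between Rev1 knockout and WT changed sign with depth, being 0.709 points at 5000 UMIs per well.

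Wells with several Cdkn1a UMIs were found mainly in the double mutant. In wells thinned to 5000 UMIs, 25.3%, 28.2% and 20.99% of the wells of double mutant replicates 1, 2 and 4 had at least 1 Cdkn1a UMI, and 8.84%, 11.8% and 7.41% had at least 2. In Pcna K164R 9.52% and 10.04% had at least 1 and 3.49% and 2.32% at least 2. In Rev1 knockout 7.43%, 6.22% and 5.34% had at least 1 and 1.01%, 1.04% and 0% at least 2, and in WT 7.48%, 3.67% and 5.71% had at least 1 and 0.831%, 0% and 1.43% at least 2. Double mutant replicate 3 had only 9 wells of that depth, 1 of them with Cdkn1a. Without thinning, 59 wells held 10 or more Cdkn1a UMIs, of which 52 were in the double mutant, 5 in Pcna K164R, 1 in Rev1 knockout and 1 in WT. Of the 52, 20 were erythroid-like, 19 belonged to cluster 0 and 5 to cluster 4.

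**Figure D3:**
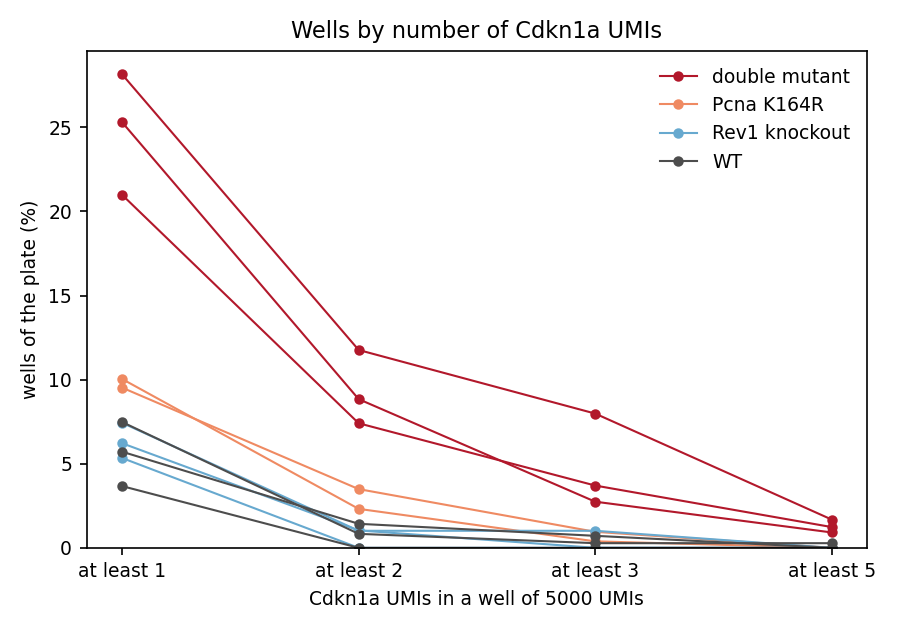
Percentage of wells of a plate (1 line per plate) with at least 1, 2, 3 or 5 Cdkn1a UMIs after thinning to 5000 UMIs per well. Double mutant replicates 1, 2 and 4 are above all other plates at each number, and replicate 3 is not drawn because 9 of its wells reached that depth.

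On double mutant replicates 1, 2 and 4 Cdkn1a was spread less evenly over wells than Bax and Mdm2, a pair of p53 targets of like level. If each well of a plate had the plate's mean rate, counting alone would put a Cdkn1a UMI into 79.3%, 83.9% and 62.4% of the wells of double mutant replicates 1, 2 and 4, which is 25.8, 25.7 and 21.3 points more than was observed. For Bax, a pore-forming protein of apoptosis that had 88.6, 95.9 and 102 CPM in those plates, the observed share fell short by 4.86, 7.41 and 3.95 points. For Mdm2, the ubiquitin ligase that degrades p53, at 86.2, 82.9 and 67.8 CPM, it fell short by 0.735, 8.925 and 4.24 points. Double mutant replicate 3, with 7 Cdkn1a UMIs, had a UMI in 8.54% of wells against 7.90% by counting alone, and a variance over mean of 0.926. In replicates 1, 2 and 4 the variance of Cdkn1a UMIs per well over their mean was 9.22, 16.9 and 6.75, against 2.79, 4.06 and 2.39 for Bax. It was 3.32, 6.52 and 2.10 for Mdm2 and 1.48, 1.79 and 1.53 for Cdkn1b. At higher levels, Ccng1 had 7.93, 11.6 and 4.94, Hprt 7.81, 8.94 and 7.43 and Pcna 25.9, 27.7 and 18.8. For Cdkn1a the highest value of any plate was 18.3, in WT replicate 1, where 1 well held 53 of 163 UMIs. The tenth of wells with most Cdkn1a held 59.5%, 66.5% and 63.8% of the Cdkn1a UMIs, against 31.6%, 35.2% and 31.97% for Bax. In the other genotypes, where the level was lower, Pcna K164R plates fell short by 15.3 and 14.5 points, Rev1 knockout plates by 7.07, 4.61 and 5.44 points and WT plates by 11.9, 0.264 and 5.63 points. Wells are not replicates, so these values were not tested, and depth per well enters them.

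Clusters were built without Cdkn1a and the listed cell-cycle genes among the variable genes, and named from marker genes only where those led the cluster. Values are given for plates with 20 or more wells of a class, and 4 classes had such plates in the double mutant. One of them, the unnamed cluster 8, had such a plate only in double mutant replicate 3, whose 76 wells at a median of 1794.5 UMIs held 6 Cdkn1a UMIs (29.6 CPM). In cluster 0, an unnamed group led by Cd48, a surface antigen of progenitors beyond the stem cell stage, Cdkn1a had 75.6, 82.1 and 93.3 CPM on double mutant replicates 1, 2 and 4, against 25.0 and 14.6 CPM in Pcna K164R and 6.77 and 14.5 CPM in Rev1 knockout replicates 1 and 3. No WT plate had 20 wells of cluster 0. In cluster 4, led by mitotic genes such as Aspm and Cep55, it had 98.4 and 53.7 CPM on double mutant replicates 1 and 2, 21.7 and 14.7 CPM in Pcna K164R, 10.9, 6.06 and 0 CPM in Rev1 knockout and 14.8 and 3.61 CPM in WT replicates 1 and 2. In erythroid-like wells it had 52.0, 128 and 38.9 CPM in the double mutant, 33.1 and 61.5 CPM in Pcna K164R, 12.8 CPM in Rev1 knockout replicate 3 and 12.5 CPM in WT replicate 1, and here the Pcna K164R plates overlapped the double mutant. In HSC-like wells, led by Meg3, Mecom and Procr, no double mutant plate had 20 wells. The 27 HSC-like wells of the double mutant, summed, stood at 81.1 CPM with a UMI in 44.4% of them, against 29.5 CPM and 23.5% of 98 wells in Pcna K164R, 11.97 CPM and 11.7% of 179 wells in Rev1 knockout and 14.6 CPM and 12.6% of 206 wells in WT. One double mutant well held 18 of the 44 UMIs, and without it the 27 wells stood at 52.9 CPM.

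**Figure D4:**
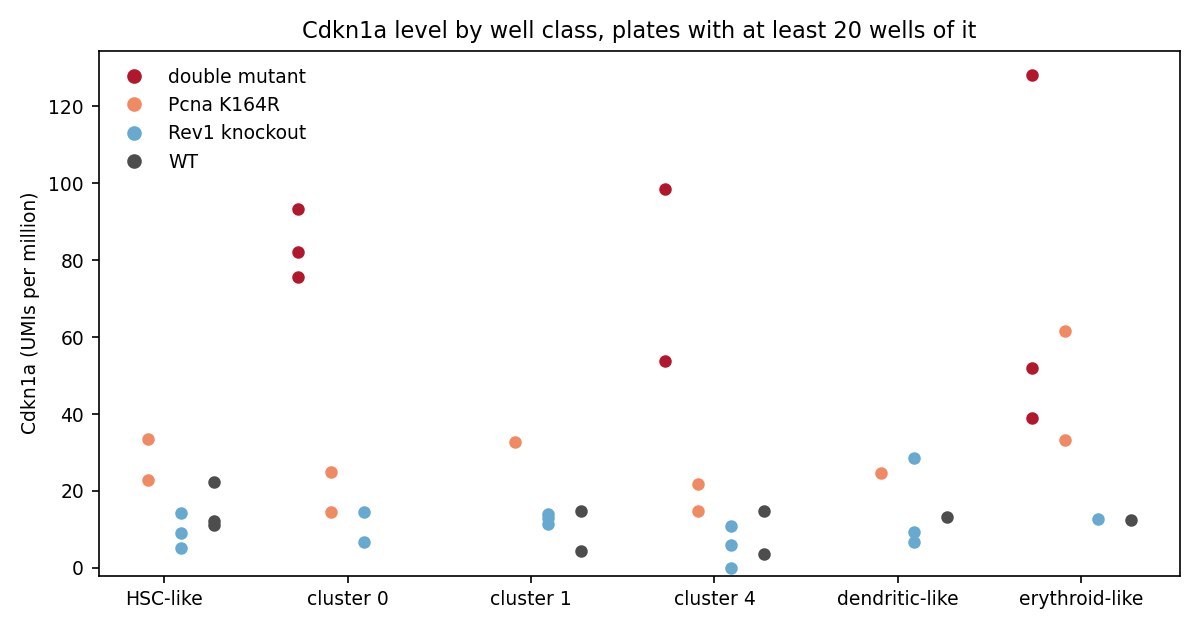
Cdkn1a in CPM (before TMM scaling) by well class, 1 point per plate with at least 20 wells of that class. Double mutant plates lie above Pcna K164R and Rev1 knockout in cluster 0, where no WT plate has 20 wells, above the other genotypes in cluster 4, and overlap Pcna K164R in erythroid-like wells.

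Mast cell-like wells carried Cdkn1a in each genotype, as did B-lineage-like wells. The 26 mast cell-like wells were led by Cma1, Tpsb2, Cpa3 and Hdc, genes of mast cell proteases and of histamine synthesis. Outside the double mutant 18 of 22 of them had a Cdkn1a UMI (81.8%, 95% Clopper-Pearson interval 59.7 to 94.8%) at a median depth of 11486 UMIs, against 395 of the 2252 other wells (17.5%) at a median depth of 14962 UMIs. Their pooled level was 181 CPM without the well with most Cdkn1a, against 17.7 CPM in those other wells. In the double mutant 2 of 4 mast cell-like wells had it. The 39 macrophage-like wells had it in 6 of 10 in the double mutant, 5 of 13 in Pcna K164R, 1 of 7 in Rev1 knockout and 1 of 9 in WT. B-lineage-like wells had it in 7 of 14 in the double mutant and 2 of 5 in Pcna K164R. In Rev1 knockout 5 of 8 had it and in WT 2 of 5. Their pooled level was 61.6 CPM in the double mutant and 75.7 CPM in the other genotypes, so this class was not higher in the double mutant. Intervals over wells cover counting error only.

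The other p53 targets and the genes linked to p21 that are named here changed less than Cdkn1a in the double mutant against WT. Of 37 tested p53 target genes other than Cdkn1a, 5 rose and 0 fell, and their median log2 difference was 0.35 beside -0.04 over all genes tested, of which 1.80% rose and 2.41% fell. Ccng1, a cyclin that p53 induces, had 156 ± 41.0 CPM in the double mutant (SD, n = 4) and 78.1 ± 6.73 CPM in WT (n = 3), a log2 difference of 1.04 ± 0.19 (edgeR adjusted p = 0.0165). Bax rose by 1.23 ± 0.22 (adjusted p = 0.0165), the nuclease gene Aen by 0.90 ± 0.19 (adjusted p = 0.0237), Gtse1, a G2 protein that restrains p53, by 1.09 ± 0.23 (adjusted p = 0.0253), and Phlda3, an inhibitor of Akt, by 1.47 ± 0.35 (adjusted p = 0.0396). The calls of this list changed with single plates left out and with the wells used. The share of all genes called in each of these settings is not given here, so such a change need not be particular to the list. With double mutant replicate 4 left out, 0 of 36 passed (Ccng1 adjusted p = 0.204), and 0 of 36 passed without double mutant replicate 2 or WT replicate 2. Without double mutant replicate 1, 2 of 37 rose, without WT replicate 1 or 3 only 1 of 37, without double mutant replicate 3, 11 of 38 rose and 2 fell, and without Rev1 knockout replicate 1, 12 of 39 rose and 2 fell. Without erythroid-like wells 3 of 36 rose, namely Ccng1, Bax and Gtse1, whereas Aen (adjusted p = 0.0977) and Phlda3 (adjusted p = 0.165) no longer passed. With a flow cell term, in session 1 alone and with read counts none passed. Each of the 5 genes stayed higher in the double mutant under all alternatives that gave a value. Mdm2 had 66.1 ± 28.4 CPM in the double mutant and 64.4 ± 6.48 CPM in WT. Before TMM scaling, double mutant replicate 3 stood at 14.1 CPM from 3 Mdm2 UMIs. Double mutant replicates 1, 2 and 4 stood at 86.2, 82.9 and 67.8 CPM, and WT plates at 60.6, 78.9 and 71.1 CPM. None of 17 genes of p53 and its regulators passed (median 0.08), nor any of 5 other CDK inhibitors, where Cdkn1c stood at -0.70 (adjusted p = 0.0584) and Cdkn1b at -0.69 (adjusted p = 0.119).

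Among 11 cyclins and CDKs that p21 binds, 2 rose: Ccne1, the cyclin of S-phase entry, by 1.36 ± 0.26 (adjusted p = 0.0202) and Ccnb1, the mitotic cyclin, by 1.09 ± 0.24 (adjusted p = 0.0293), with a list median of 0.34. None of 12 genes that degrade p21 or guide its turnover passed (median 0.30). Of 17 other transcriptional regulators of Cdkn1a, 2 fell and 0 rose (median -0.46). They were Klf6, an activator of Cdkn1a in other cell types, at 20.9 ± 5.13 CPM in the double mutant and 61.3 ± 13.01 CPM in WT (log2 -1.45 ± 0.26, adjusted p = 0.0160), and Gfi1, a repressor of Cdkn1a in blood cells, at 31.6 ± 11.4 CPM in the double mutant and 108 ± 30.4 CPM in WT (log2 -1.59 ± 0.29, adjusted p = 0.0178). Among cell-cycle genes 2 of 28 S-phase genes rose (Ccne1 and Cdc6, median 0.39), as did 4 of 34 genes of G2 and mitosis (Gtse1, Ccnb1, Cdca3 and Birc5, median 0.53), and 0 of both lists fell. When double mutant replicate 4 was left out, Ccnb1 still passed (adjusted p = 0.0463) and the other genes named here did not, and without double mutant replicate 3 the S-phase and mitosis lists had 14 higher genes each. How many of all genes passed in these leave-outs is not given here, so the change need not be particular to these lists. Without erythroid-like wells Ccnb1 (adjusted p = 0.102), Ccne1 (0.303), Cdc6 (0.427), Cdca3 (0.169), Birc5 (0.146), Klf6 (0.0611) and Gfi1 (0.0664) did not pass. Of the senescence-associated list only 3 genes passed the filter on low counts, and none of these passed the test.

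Erythroid genes and interferon-stimulated genes moved in the same comparison. Of 27 genes of mature erythroid cells and haem synthesis 14 rose (median 1.75), and of 26 interferon-stimulated genes 16 fell (median -1.957). With double mutant replicate 4 left out, 0 of 26 erythroid genes rose and 2 interferon-stimulated genes fell, and without double mutant replicate 3 these counts were 18 and 20. They are given without the share of all genes called in the same leave-out. The summed level of 16 erythroid markers ranged from 719 to 4902 CPM in the double mutant and from 1144 to 2034 CPM in WT, and without erythroid-like wells Cdkn1a was still 2.27 higher in the double mutant (adjusted p = 0.00826). The summed level of 11 mast cell markers ranged from 244 to 1465 CPM in the double mutant and from 1204 to 1516 CPM in WT. Of the marker lists of the other cell types, 6 summed to less in all 4 double mutant plates than in any of the 3 WT plates. The 15 HSC markers summed to 521 to 1035 CPM in the double mutant and 1749 to 2143 CPM in WT, and the 10 lymphoid markers to 188 to 471 CPM in the double mutant and 846 to 1018 CPM in WT. The 11 dendritic markers summed to 245 to 380 CPM in the double mutant and 648 to 772 CPM in WT, and the 10 megakaryocyte markers to 211 to 350 CPM in the double mutant and 465 to 472 CPM in WT. The 7 endothelial markers summed to 28.2 to 54.1 CPM in the double mutant and 73.7 to 91.8 CPM in WT, and the 7 hepatocyte markers to 24.6 to 33.1 CPM in the double mutant and 37.5 to 57.99 CPM in WT. The ranges of the granulocyte-monocyte, macrophage and B-lineage lists overlapped. The part of these lists in the difference of Cdkn1a was not tested.

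Inside a plate, wells with a Cdkn1a UMI after thinning to 5000 UMIs were set against wells without one. The 9 plates with at least 10 wells of each kind were used. A negative well can hold Cdkn1a UMIs that the thinning left out. On double mutant replicate 1, 83 wells were positive and 245 negative, whereas 191 kept wells had a Cdkn1a UMI before thinning. The test, edgeR with plate as a block and Cdkn1a left out, used 8031 genes and called 75 higher and 11 lower in Cdkn1a-positive wells (0.934% and 0.137%, together 1.07%). Among 26 tested p53 target genes 6 were higher and 0 lower (median 0.48 beside -0.03 over all genes). Among 34 genes of G2 and mitosis 2 were lower and 0 higher, and 32 of the 34 lay below 0 (median -0.30). No member of the other pathway lists, which leave out the cell type markers, passed, and S-phase genes had a median of 0.06.

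Ccng1 went with Cdkn1a in the double mutant and Pcna K164R plates used and in WT replicate 1, the only WT plate used. In double mutant replicates 1, 2 and 4 it had 294, 296 and 344 CPM in Cdkn1a-positive wells and 140, 157 and 138 CPM in negative wells. In Pcna K164R it had 313 and 283 CPM in positive wells and 120 and 114 CPM in negative wells, and in WT replicate 1 130 CPM in positive and 85.8 CPM in negative wells. In Rev1 knockout replicates 1, 2 and 3 positive wells had 65.3, 48.1 and 151 CPM and negative wells 78.6, 67.8 and 75.1 CPM, so that 2 of these plates went the other way. Over the 9 plates the log2 difference was 0.97 ± 0.13 (adjusted p = 1.01e-05). The other p53 targets that were higher were Phlda3 (1.55 ± 0.38, adjusted p = 0.0279, in 9 of 9 plates), Bbc3, which encodes the apoptosis inducer PUMA (1.60 ± 0.37, adjusted p = 0.0130, in 8 of 9), Eda2r, a death-domain receptor (2.09 ± 0.52, adjusted p = 0.0291, in 7 of 9), Apaf1, the scaffold of the apoptosome (0.83 ± 0.22, adjusted p = 0.0418), and Dcxr (1.36 ± 0.36, adjusted p = 0.0429). Mdm2 was 0.84, 0.89 and 1.21 higher on the log2 scale in positive wells of the double mutant plates, 0.90 and -0.06 in Pcna K164R and between -1.05 and -0.02 in Rev1 knockout and WT plates, and did not pass (0.50 ± 0.17, adjusted p = 0.208). Without erythroid-like wells 2 of 22 p53 targets were higher, Ccng1 (1.02, adjusted p = 4.3e-05) and Trp53inp1 (1.15, adjusted p = 0.0353). Eda2r (adjusted p = 0.0592), Bbc3 (0.114), Apaf1 (0.121), Dcxr (0.214) and Phlda3 (0.2503) then did not pass. Without Pcna K164R replicate 1 the count was 1 of 26, without double mutant replicates 1 and 2 in turn 2 of 25 and 3 of 26, and with double mutant replicate 4 left out it was 4 of 29. Over all genes, 66 of 6744 were higher without erythroid-like wells. In the leave-outs just named, 52 of 7968, 58 of 7634, 55 of 7956 and 85 of 9474 genes were higher, in that order.

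Of the 11 genes lower in Cdkn1a-positive wells, 4 named here are known from dividing cells. Kpna2, a nuclear import receptor that is high in cycling cells, was lower in 9 of 9 plates (-0.68 ± 0.11, adjusted p = 0.000277). Top2a, the topoisomerase that untangles chromosomes before division, was lower in 9 of 9 (-0.49 ± 0.11, adjusted p = 0.0170), as was the tubulin gene Tuba1b (-0.27 ± 0.05, adjusted p = 0.00299). Cks2, a subunit that binds CDKs, was lower in 8 of 9 plates (-0.53 ± 0.12, adjusted p = 0.00967). Without erythroid-like wells Top2a did not pass (-0.36, adjusted p = 0.139), and Kpna2 (-0.53), Cks2 (-0.45) and Tuba1b (-0.23) did. The rule for named genes also gave S100a8 (-2.40), Tnfrsf1a (-0.90), Tmed9 (-0.61), the ribosomal RNA Rn45s (-0.27) and mtNd2 (-0.21). Median depth before thinning was 31797 UMIs in positive and 33130 UMIs in negative wells of double mutant replicate 1, and the widest gap was 17924.5 UMIs in positive and 23570 UMIs in negative wells of Pcna K164R replicate 1.

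Of the 86 genes called, 6 were listed markers of mast cells and 7 of macrophages. These are 6 of 8 tested mast cell markers and 7 of 10 macrophage markers, all higher in positive wells. The summed level of the 11 mast cell markers was higher in positive wells on 6 of 9 plates, with a range of 471 to 12557 CPM in positive wells and of 641 to 3973 CPM in negative wells. The summed level of the 10 macrophage markers was higher on 5 of 9 plates, from 0 to 1825 CPM in positive and from 8.76 to 541 CPM in negative wells, and all 10 were at 0 in the positive wells of Rev1 knockout replicate 1. Mast cell-like wells were 11 of the 295 positive wells (3.73%, against 1.01% of all wells compared). Macrophage-like wells were 6 of them (2.03%, against 1.23% of all wells compared). Fcer1g, a signalling chain of Fc receptors in myeloid and mast cells, was higher in 9 of 9 plates (1.38 ± 0.16, adjusted p = 7.96e-07), and the rule for named genes also gave Slc40a1, the iron exporter ferroportin (1.54 ± 0.22), Csf1r, the receptor of macrophage colony-stimulating factor (1.45 ± 0.25), and Prkcb, Serpinb1a, Basp1, Cd97, Ctsd, Fcgr3, Csf2rb and Rab44.

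When mast cell-like and macrophage-like wells were left out, a choice made after seeing the data, 9 genes were higher and 11 lower (0.113% and 0.139% of 7942 genes), and 17 of these 20 had also been called with all wells. Of 26 p53 targets 5 were then higher: Ccng1 (1.04 ± 0.13, adjusted p = 1.3e-08), Eda2r (2.19 ± 0.51, adjusted p = 0.0352), Phlda3 (1.62 ± 0.38, adjusted p = 0.0380), Bbc3 (1.55 ± 0.38, adjusted p = 0.0467) and Trp53inp1, a p53-induced regulator of autophagy (1.12 ± 0.28, adjusted p = 0.0488). Kpna2 (-0.63), Top2a (-0.43), Cks2 (-0.45) and Tuba1b (-0.22) were still lower. Fcer1g (0.64, adjusted p = 0.493), Slc40a1 (0.77, adjusted p = 0.239) and Csf1r (0.51, adjusted p = 1.00) no longer passed. Neither did the p53 targets Apaf1 (0.82, adjusted p = 0.111) and Dcxr (1.35, adjusted p = 0.148). The mast cell marker Cpa3 was still higher (1.38 ± 0.31, adjusted p = 0.0276). In the 3 double mutant plates alone, with all well classes kept, 9 genes were higher and 0 lower. Ccng1 (1.09, adjusted p = 0.00936) was the only p53 target among them. Listed macrophage markers among the 9 were Marco, Cd5l, C1qb, Hmox1, Slc40a1 and C1qc. Their log2 differences ranged from 1.87 to 3.11 (edgeR adjusted p from 0.000113 to 0.00973). Only 4 macrophage-like wells, 3 of them positive, were among the double mutant wells compared, all on replicate 1. These markers were also higher in positive wells of replicates 2 and 4. Marco, for example, had 60.5 CPM in positive and 7.40 CPM in negative wells of replicate 2, and 115 and 12.9 CPM in replicate 4.

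**Figure D5:**
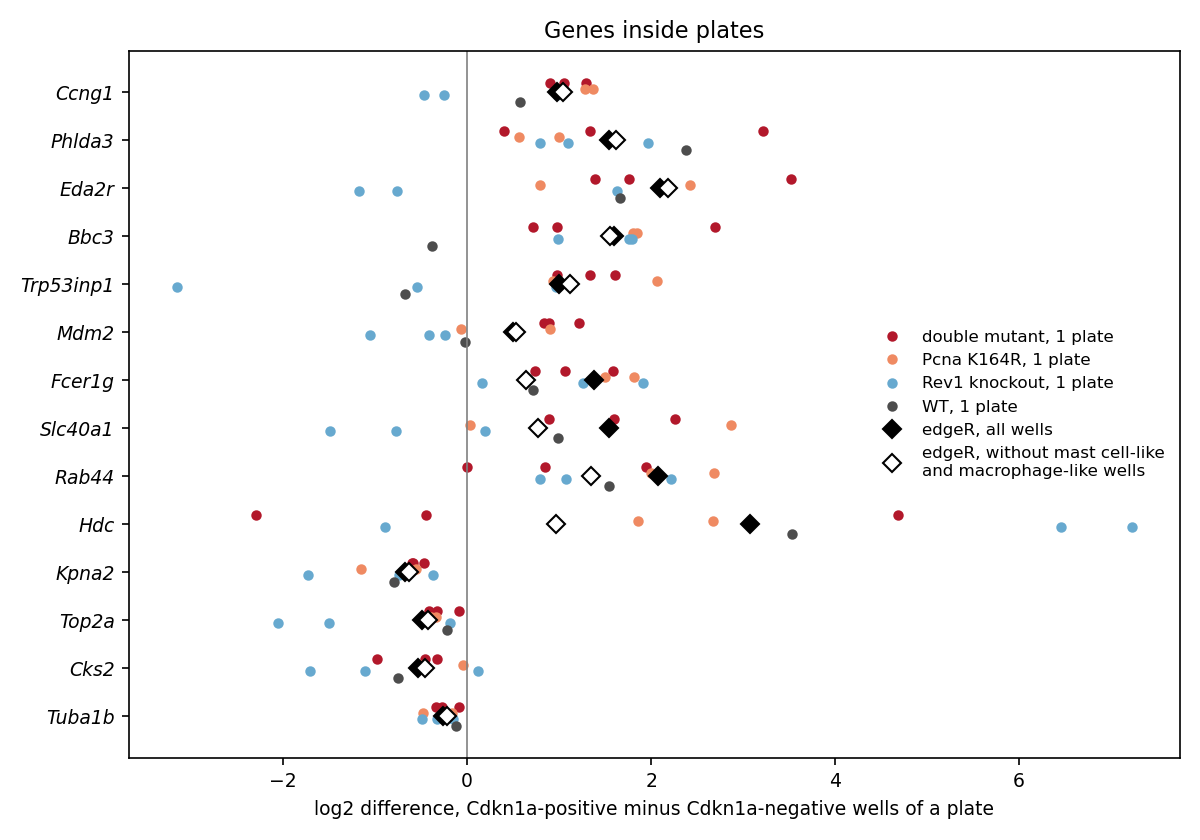
Log2 difference between Cdkn1a-positive and Cdkn1a-negative wells of the same plate for 14 genes, 1 circle per plate coloured by genotype, with the edgeR estimate over all wells (black diamond) and without mast cell-like and macrophage-like wells (white diamond). The p53 targets at the top and the genes of dividing cells at the bottom keep their place between the diamonds, whereas Hdc, Fcer1g and Slc40a1 move towards 0.

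Across the 12 plates the genes whose profile was most like that of Cdkn1a, by root mean square difference of centred log2 CPM, were Zfp365 (0.495), Ppap2a (0.502), S100a6 (0.551), Endod1 (0.556), Icam4 (0.567), Dnajc6 (0.580), Tfrc (0.585) and 1110008P14Rik (0.601), where the median over 12220 genes was 1.41. A gene that did not vary over the plates would score 1.20, the root mean square of Cdkn1a about its own mean. The plates share genotype, sort session and depth, so this is a description. S100a6, a calcium-binding protein, averaged 49.8 ± 13.1 CPM in the double mutant, 22.5 ± 10.2 CPM in Pcna K164R, 11.5 ± 3.73 CPM in Rev1 knockout and 9.67 ± 2.80 CPM in WT, in the same order as Cdkn1a except for the last pair. Tfrc, the transferrin receptor, is on the erythroid list. Zfp365 was near the limit of detection, at 6.74 ± 1.68 CPM in the double mutant and 0.785 ± 0.505 CPM in WT. Ppap2a was low as well, at 4.61 to 8.68 CPM in double mutant plates and 0.625 to 2.63 CPM in WT plates.

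The next measured gene downstream of Cdkn1a on the same strand, Rab44 (chr17:29114145-29148980, 13418 bases away), was among the genes that went with it inside plates. It was 2.07 ± 0.39 higher in Cdkn1a-positive wells (adjusted p = 0.00132), in 8 of 9 plates, and had no UMI in either kind of thinned wells of the library labelled double mutant replicate 4. It did not rise with genotype: the log2 difference was -1.70 ± 0.55 between double mutant and WT (adjusted p = 0.0926), with 10.1, 8.68, 4.70 and 7.07 CPM in double mutant plates and 18.0, 34.1 and 79.1 CPM in WT plates. Without mast cell-like and macrophage-like wells the difference inside plates was 1.35 and did not pass (adjusted p = 0.791). Mast cell-like wells held 4 of 117, 17 of 84, 0 of 1 and 0 of 17 Rab44 UMIs in the double mutant plates, 44 of 140 and 29 of 45 in Pcna K164R, 20 of 66, 11 of 122 and 4 of 50 in Rev1 knockout and 39 of 131 in WT replicate 1. WT replicates 2 and 3 had no mast cell-like well. Srsf3, the nearest measured gene upstream, lies 47603 bases away and had a log2 difference of 0.40 ± 0.21 between double mutant and WT (adjusted p = 0.284).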

How the data were processed

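Per the labels' protocols, single LSK cells were sorted into wells and sequenced by SORT-seq with 75 bp paired ends, and the submitters' processing notes name BWA 0.7.15 and GRCm38 (mm10). Which program counted genes, and on which annotation, was not stated in any source at hand. The authors deposited, per plate and well, UMI counts, read counts and transcript values, which are expected counts after barcode correction and were rounded. Cdkn1a and the gene lists were chosen with earlier results of these data known. Wells with at least 1000 UMIs outside ERCC rows were summed per plate and tested with edgeR 4.0.16 (quasi-likelihood, TMM, filterByExpr, Benjamini-Hochberg over all genes) with genotype and sort session as terms, leaving 6 residual degrees of freedom. Wells were thinned with a fixed seed to 1000 UMIs for shares and clusters (scanpy 1.11.5) and to 5000 for the comparison inside plates. Named genes were up to 8 list members by smallest p in the double mutant against WT, up to 12 genes per direction inside plates with the same direction in at least 3 in 4 plates, and the 8 genes most like Cdkn1a across plates. A gene named outside this rule was chosen after its values were seen. In simulated data with known changes, edgeR recovered 74.7% of 4-fold and 11.0% of 2-fold changes for the double mutant against WT (11846 genes), and 99.0% and 71.0% inside plates (7706 genes). Alternatives included DESeq2 1.42.0, other well filters and each plate left out. Doublets were not called.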

Additional observations from a re-analysis of the deposited data

Results flagged for a closer look

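Wells with fewer than 1000 UMIs, which entered no comparison, also held Cdkn1a. In the 722 such wells of the double mutant it had 15 UMIs of 193250, or 77.6 CPM (95% Poisson interval 43.4 to 128), against 1 UMI in 295 WT wells, or 14.3 CPM (interval 0.361 to 79.4). The intervals cover counting error only, and those 2 overlap. The kept wells stood at 80.3 CPM in the double mutant and 17.1 CPM in WT when summed over plates.

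Inside plates, Tnfrsf1a, a receptor of tumour necrosis factor, was lower in Cdkn1a-positive wells of all 9 plates, and the library labelled double mutant replicate 4 stood apart from the others at a log2 difference of -3.42. On that plate the positive wells held no Tnfrsf1a UMI, against 32.1 CPM in negative wells, so the value depends on the prior count and is no measured fold. The criterion marks about 1 of 20 groups by chance.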

How the results depend on the processing

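Cdkn1a kept its direction in the double mutant against WT, Pcna K164R and Rev1 knockout under all alternatives run. Against WT the range over plates left out was 2.08 to 2.74, and the call was lost with a flow cell term instead of session (3.15), in sort session 1 alone (1.99) and with read counts (2.61). Against Rev1 knockout it was lost with read counts (2.00) and in 2 of the leave-outs (range 1.81 to 2.36). Against Pcna K164R it was gained without a filter on low counts (1.73), with DESeq2 (1.71), without mast cell-like wells (1.71), without mast cell-like and macrophage-like wells (1.76) and in 2 of the leave-outs (range 1.59 to 1.93). The interaction passed only without a filter on low counts (1.51). Cdkn1a in Rev1 knockout against WT changed sign with no sort session term (-0.16), in wells thinned to 1000 UMIs (-1.49), without erythroid-like wells (-0.086) and in 2 of the leave-outs (range -0.11 to 0.39), and its share of wells did so when wells were not thinned (4.13 points) or thinned to 5000 UMIs (0.709 points). The cause was not tested.

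The 75 higher and 11 lower genes inside plates became 134 and 85 in wells not thinned, 107 and 57 without a filter on low counts, 45 and 2 with DESeq2, 28 and 5 with at least 2 UMIs in a positive well, 22 and 9 without mast cell-like wells, 9 and 11 without macrophage-like wells as well, 9 and 0 in double mutant plates alone and 5 and 1 at 1000 UMIs per well, and with RLE size factors 86 and 7. Leaving out a plate gave 52 to 90 higher and 8 to 18 lower, with 18 lower without the library labelled double mutant replicate 4. Among named genes, these changed sign: Rfwd2 (-0.21, thinned to 1000 UMIs), Cdkn1b (0.25, flow cell) and Igfbp4 (0.13, session 1) between genotypes, and inside plates S100a8 (2.10), Rn45s (0.038) and Tmed9 (0.039) in wells not thinned, Tmed9 (0.41), Marco (-0.21) and Cd5l (-0.39) at 1000 UMIs per well, and Tpsb2 without mast cell-like wells (-0.12) and without macrophage-like wells as well (-0.084).

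No paired analysis was possible because the labels carry no replicate numbers that groups share. At 82 wells, double mutant replicate 3 limits what can be said of single wells, and the double mutant has no plate with 20 HSC-like wells.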
